A study of Mus musculus with 6 samples.

Results

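The plasminogen activator system was followed through 8 genes in cultured AML12 cells, an established line of mouse hepatocytes: Plat, Plau, Plg, Plaur, Anxa2, S100a10, Serpine2 and Serpinf2. Plat was selected on its log2 fold change between the 2 groups of these same libraries, and the others were set beside it for their roles, so the values of Plat are given as a description, with no test. All 8 symbols matched 1 row each of the 54532 genes in the deposited table, and 6 of them passed the filter on low counts. The 6 libraries came from wild-type cells collected at 24 h: 3 are labelled PA/OA, the reagent of the disease model, with PA at 400 nM and OA at 800 nM, and 3 are labelled PP, at 250 µg/ml. The labels do not spell out these abbreviations. The design text does not settle whether the PP cells also received PA/OA, and untreated control cells were not analysed here. Both groups share the line, the genotype and the time. No label ties the replicates to separate cultures, so the p-values weigh differences only against library-to-library variation, part or all of which could be technical.

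Plasminogen, the product of Plg, is a circulating zymogen made mainly by hepatocytes. Tissue plasminogen activator (Plat) and urokinase (Plau) cleave it to plasmin, a protease that dissolves fibrin and degrades matrix. The urokinase receptor (Plaur) and the complex of annexin A2 (Anxa2) with S100A10 hold these proteases at the cell surface, and serpins block them: protease nexin 1 (Serpine2) acts on thrombin and the activators, and alpha-2-antiplasmin (Serpinf2) on plasmin. Only mRNA was measured here, so neither protein, secretion nor protease activity is known.

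Total counts ran from 24113169 to 32560589 per library, with the larger totals in PP. The edgeR quasi-likelihood fit called 11785 of 15718 genes (75%) with a Benjamini-Hochberg threshold of 0.05. The median log2 fold change of all genes, PP minus PA/OA, was -0.09. Levels are given as CPM, each count over its library's total after TMM scaling, which sets libraries to a common level over most genes, and levels of different genes are compared only as CPM per kilobase of gene length. Of the hepatocyte markers, Krt8 and Krt18 stood at 1780 ± 99.3 and 975 ± 12.1 CPM in PA/OA (SD, n = 3), but Alb at only 12.2 ± 1.36 CPM, Ttr at 1.45 ± 0.664 CPM, and Tat had no count. The list's sum over 13 markers ran from 3010 to 3220 CPM in PA/OA and from 3720 to 4070 CPM in PP. Krt8 and Krt18 made up most of it in both groups, so the higher sum in PP does not describe the other markers. Of the 9 tested, 2 rose, Krt18 (log2 fold change 0.83) and Krt8 (0.17), while 4 fell. Those 4 were Apob (-1.70), Hnf4a (-1.42), Serpina1b (-1.25) and Alb (-0.31). Alb was barely past the test (adjusted p = 0.0489, edgeR), and its groups overlapped. The 3 not past the test were Trf (0.51), Apoa1 (0.42) and Ttr (-0.92). Mean CPM of Apob was 246 in PA/OA against 75.8 in PP, and that of Hnf4a 71.7 against 26.8. The part of these markers in the results below was not tested, and in bulk RNA fewer cells of a kind and less RNA per cell cannot be told apart.

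Plat, on chromosome 8 from 22757727 to 22782844 (build mm10, plus strand), was the gene of the system with the widest gap between the groups. It stood at 59.6, 61.1 and 51.7 CPM in PA/OA replicates 1 to 3 and at 819, 920 and 819 CPM in PP replicates 1 to 3. The groups did not overlap, and each PP library lay far above each PA/OA library. The means were 57.5 ± 5.08 and 852 ± 58.1 CPM (SD, n = 3), a log2 fold change of 3.89 ± 0.07 (SE). This placed Plat at rank 17 of 15718 genes by fold change. None of the other 313 genes tested with an average log2 CPM at or above that of Plat had a larger one. That average is over all 6 libraries and so includes the PP level of Plat. Since Plat was selected on its fold change, this place and the rank describe that selection. The share of Plat in all counts went from 0.00667% to 0.0732%. With the trend of fold change with abundance removed from each library, the log2 fold change was 3.28. Plat is also known as a product of endothelial cells. The 8 endothelial markers (Pecam1, Cdh5, Kdr, Tek, Vwf, Tie1, Stab2 and Lyve1) summed to between 0.829 and 1.75 CPM in PA/OA and between 0.837 and 1.59 CPM in PP.

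**Figure D1:**
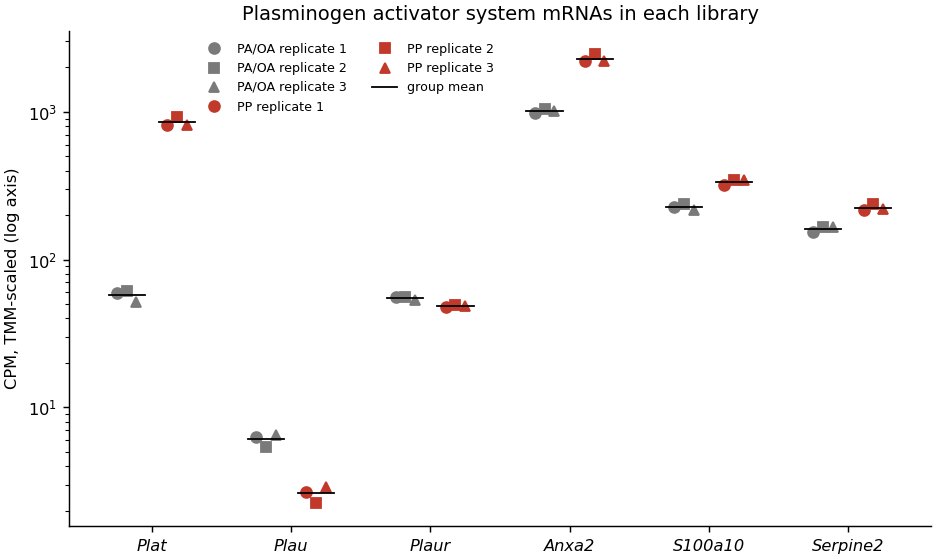
CPM after TMM scaling (log axis) of the 6 genes that passed the filter, with 1 point per library, the replicate number as the shape and a bar at the mean of each group. Plat lies between 51.7 and 61.1 CPM in PA/OA and between 819 and 920 CPM in PP, and in none of the 6 genes do the groups overlap.

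Plau, the urokinase gene (chromosome 14, 20836660 to 20843385), was scarce and fell. It held 6.31, 5.43 and 6.5 CPM in PA/OA and 2.69, 2.24 and 2.91 CPM in PP. All PP libraries were below all PA/OA libraries, at 62 to 80 counts each. The log2 fold change was -1.22 ± 0.20 (SE; adjusted p = 1.21e-05, edgeR), so PA/OA held 2.32 times the PP level. It was -0.76 with the trend with abundance removed (adjusted p = 0.00172, edgeR) and -1.65 with library size only (2.39e-07). The 2 activator genes therefore stood apart further in PP. Per kilobase, Plat took 78.1% ± 2.98 of the activator mRNA in PA/OA and 99.2% ± 0.151 in PP (SD, n = 3). The ratio of Plat to Plau per length was 3.59 in PA/OA and 124 in PP.

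The zymogen gene Plg (chromosome 17, 12378608 to 12419385) was at the limit of detection in these cells. It had 0 counts over the 3 PA/OA libraries, which allows up to 0.039 CPM of the unscaled library totals, and 1 count over the 3 PP libraries. No fold can be given for it. Intervals and limits on counts cover counting error only.

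Among the receptor genes, Anxa2 rose the most. It stood at 978, 1040 and 1020 CPM in PA/OA and at 2190, 2470 and 2220 CPM in PP, with no overlap (chromosome 9, 69453620 to 69491795). The log2 fold change was 1.18 ± 0.06 (SE; adjusted p = 2.75e-14, edgeR), a 2.26-fold higher level. It was 0.34 with the trend with abundance removed (adjusted p = 1.18e-06, edgeR). An antisense gene, Gm16144, and a miRNA gene lie over Anxa2, but with 854 and 121 counts against its 271778.

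S100a10, the gene of the partner subunit (chromosome 3, 93555080 to 93564643), rose less than Anxa2. Its libraries held 226, 239 and 217 CPM in PA/OA and 319, 347 and 344 CPM in PP. The log2 fold change was 0.57 ± 0.06 (SE; adjusted p = 5.76e-09, edgeR), and every PP library was above every PA/OA library. With the trend with abundance removed it was 0.04, and the call was lost (adjusted p = 0.554, edgeR). The balance of the pair was read within each library, where a scaling factor for the whole library cancels. Removal of the trend with abundance does not cancel. With it, Anxa2 and S100a10 stood at 0.34 and 0.04, a narrower gap than the one below. On the log2 scale, Anxa2 over S100a10 per length was 0.491, 0.504 and 0.61 in PA/OA and 1.16, 1.21 and 1.07 in PP. The difference of 0.609 had an exact two-sided permutation p of 0.1, the smallest that 3 against 3 libraries can give.

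Plaur, the urokinase receptor gene (chromosome 7, 24462484 to 24475968), was slightly lower in PP. It stood at 56.1, 56.2 and 53.4 CPM in PA/OA and at 47.7, 49.2 and 48.8 CPM in PP. The groups did not overlap, but the gap between them was narrow. The log2 fold change was -0.19 ± 0.07 (SE; adjusted p = 0.0168, edgeR), or -0.10 relative to the median of all genes. The call was lost without PA/OA replicate 1 (-0.17, adjusted p = 0.0612, edgeR), without PP replicate 1 (-0.15, 0.105) or without PP replicate 3 (-0.17, 0.0708). It was also lost with no filter on low counts (-0.17, 0.0573). The value was -0.62 with library size only and -0.42 with upper-quartile scaling (adjusted p = 4.34e-08 and 7.3e-06, edgeR). Both are still -0.10 relative to the median, since such scalings shift all genes alike. With the trend with abundance removed, Plaur was at -0.39 (adjusted p = 3.03e-05, edgeR). Per length, Plaur exceeded Plau by a log2 ratio of 3.04 ± 0.169 in PA/OA and 4.08 ± 0.204 in PP (SD, n = 3).

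RefSeq upstream sequence (build GRCm38.p6) was held for 4 of the 8 genes, and those of Plaur and Anxa2 are printed because both hold the same short element although Anxa2 rose and Plaur did not. The lines run 5′ to 3′ on the plus strand, from 250 bases before the RefSeq start and ending before the deposited gene start, and capitals mark TGACTCA or its reverse complement TGAGTCA, the letters bound by AP-1 factors.
Plaur, chr7:24462233-24462482: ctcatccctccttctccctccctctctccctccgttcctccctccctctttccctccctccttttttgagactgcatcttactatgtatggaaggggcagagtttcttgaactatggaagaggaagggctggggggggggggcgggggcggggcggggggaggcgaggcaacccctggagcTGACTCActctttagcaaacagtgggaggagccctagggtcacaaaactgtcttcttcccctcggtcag
Anxa2, chr9:69453433-69453619: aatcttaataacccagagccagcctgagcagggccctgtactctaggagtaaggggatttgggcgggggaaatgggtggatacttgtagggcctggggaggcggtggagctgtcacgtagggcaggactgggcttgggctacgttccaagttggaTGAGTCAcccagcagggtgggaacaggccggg
The element begins 69 bases before the RefSeq start of Plaur and 95 bases before that of Anxa2. It was found on either strand in the 250 upstream bases of 4.43% of 27025 promoters, and in neither Serpine2 nor Serpinf2. For Serpine2, all 250 bases lie inside the deposited gene, so its matches do not describe sequence upstream of the gene as counted. GGGCGG, the core of a GC box, was in 32.9% of promoters, with 3 matches in Plaur, 3 in the full 250 bases of Anxa2, 6 in Serpine2 and none in Serpinf2. A match describes letters in a window, not a bound site.

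Of the inhibitor genes, Serpine2 (chromosome 1, 79794197 to 79861180) rose modestly. It stood at 153, 165 and 166 CPM in PA/OA and at 216, 236 and 220 CPM in PP, with no overlap. The log2 fold change was 0.48 ± 0.06 (SE; adjusted p = 1.06e-07, edgeR). This call depended on the scaling. The value was 0.04 when scaled by library size alone (adjusted p = 0.495, edgeR) and 0.01 with the trend removed (0.915). Serpinf2 (chromosome 11, 75431732 to 75439591) was barely detected, with 4, 1 and 7 counts in PA/OA and 0, 0 and 4 in PP. On unscaled library totals that is 0.156 CPM in PA/OA and 0.0436 CPM in PP. The ratio on those totals was 3.58, and its exact 95% bounds of 1.08 and 15.2 cover only counting error. After TMM scaling, the means were 0.137 ± 0.109 and 0.0485 ± 0.084 CPM (SD, n = 3), a narrower gap, and the groups overlapped. No bounds were computed after TMM scaling, so the lower bound of 1.08 holds only without it. The bounds and the limit for Plg take counts as independent, and are too narrow if both mates of a read pair were counted.

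Of the 6 genes tested, 4 were higher in PP, Plat among them, and 2 were lower (Plau and Plaur). All 6 were past the threshold, as were 75% of all genes, and in all 6 the groups did not overlap, as in 77.4% of all genes. With most of the table past the threshold, and Plat chosen on this contrast, nothing is read from these counts. The median log2 fold change of the 5 besides Plat was 0.48, beside -0.09 for all genes. That gap depended on the trend of fold change with abundance. With the trend removed, Plau, Plaur, Anxa2, S100a10 and Serpine2 were at -0.76, -0.39, 0.34, 0.04 and 0.01, beside a median of 0.01 for all genes.

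**Figure D2:**
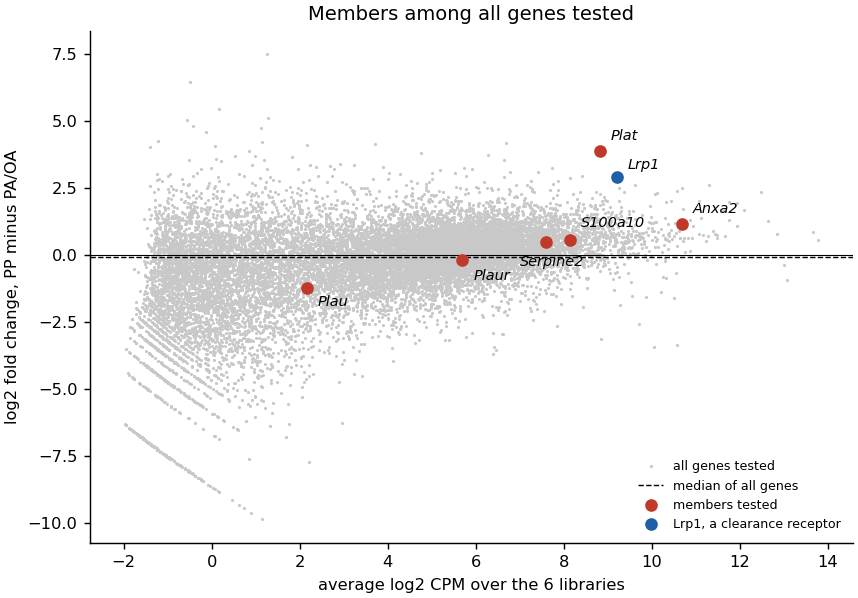
Log2 fold change (PP minus PA/OA) against average log2 CPM over the 6 libraries, with each gene tested in grey, the 6 genes of the system in red, Lrp1 in blue and the median of all genes as a dashed line. Plat, selected on its fold change, lies at 3.89, above every other gene with the same or a higher average log2 CPM. Plaur, at -0.19, lies near the median of -0.09.

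The order of the levels per length differed between the groups. In PA/OA, CPM per kilobase was 272 ± 8.80 for Anxa2, 187 ± 9.31 for S100a10, 21.1 ± 0.599 for Plaur, 19.5 ± 0.887 for Serpine2, 9.21 ± 0.815 for Plat and 2.57 ± 0.242 for Plau (SD, n = 3). Plaur and Serpine2 were the closest neighbours there, at 20.4 to 21.5 and 18.4 to 20. In PP the order was Anxa2 at 615 ± 40.6, S100a10 at 278 ± 12.7, Plat at 137 ± 9.31, Serpine2 at 27.1 ± 1.26, Plaur at 18.6 ± 0.298 and Plau at 1.11 ± 0.144. Per length, Plat thus stood below Plaur and Serpine2 in PA/OA and above both in PP, and Serpine2 stood below Plaur in PA/OA and above it in PP. These orders rest on the deposited lengths of 6241 bases for Plat, 2617 for Plaur and 8287 for Serpine2. Whether the transcripts expressed here have those lengths was not tested, and the gap between Plaur and Serpine2 in PA/OA was narrow. Among all genes tested, the level of Plat per length moved from the 69.5 to the 97.7 percentile, while Anxa2 and S100a10 were at or above the 98.8 percentile in both groups.

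**Figure D3:**
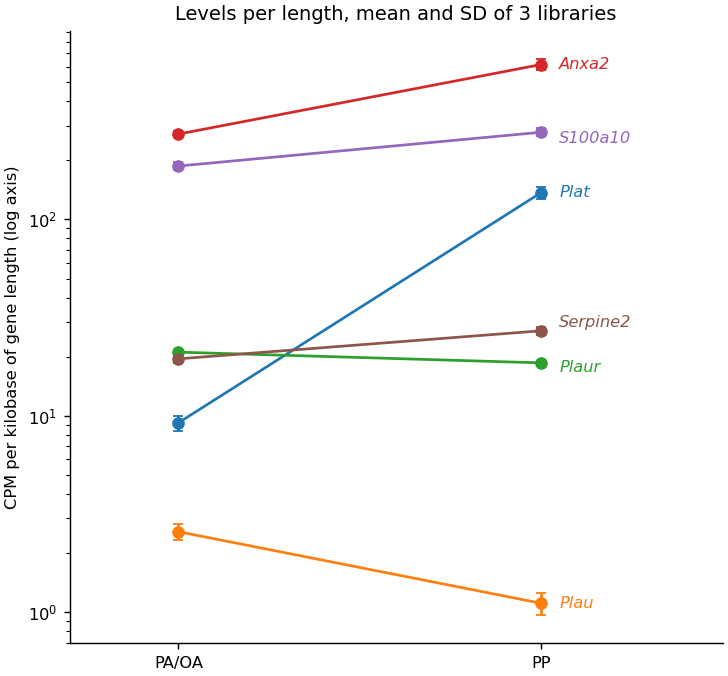
CPM per kilobase of gene length (log axis) in PA/OA and PP, as the mean of 3 libraries with the SD as bars, for the 6 genes tested. Plat climbs from 9.21 to 137 and crosses Plaur and Serpine2, while Anxa2 lies highest in both groups.

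The other genes of the pathway were taken from a list of 62, written by role. Of 37 that passed the filter, 24 were higher in PP, 5 lower and 8 not past the test, so 78.4% were called, beside 75% of all genes. Higher calls alone were 35.1% of all genes and lower calls 39.9%. The list's median log2 fold change was 0.61, and it was not recomputed with the trend with abundance removed. The split depended on the scaling, with 17 higher and 12 lower with library size only and 21 higher and 9 lower with upper-quartile scaling.

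Among the inhibitor genes of the list, Serpini1, which codes for neuroserpin, a serpin that acts on tissue plasminogen activator, rose from 22 counts over PA/OA to 127 over PP (2.68 ± 0.52, adjusted p = 8.41e-05, edgeR), and by 3.32 without PA/OA replicate 1, the library with 13 of the 22. It was 3.68 with the trend removed, and an overlapping gene model, Gm37672, holds 15 counts against its 149. Serpinb2, Serpina5, Serping1, A2m, Cpb2 and Hrg reached at most 0.29 CPM in any library and were not tested.

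Among clearance receptors and receptor partners, 6 of 8 tested rose and none fell, so 75% were called, as were 75% of all genes. Lrp1 (chromosome 10, 127538161 to 127621148), the endocytic receptor that takes up complexes of the activators with their inhibitors, rose. It stood at 152, 123 and 137 CPM in PA/OA and at 1080, 995 and 1050 CPM in PP, a log2 fold change of 2.93 ± 0.07 (SE; adjusted p = 4.57e-19, edgeR), or 2.26 with the trend removed. The integrin genes Itgb3, Itgav and Itga5, whose products pair with the urokinase receptor or bind vitronectin and fibronectin, rose by 1.70, 0.87 and 0.73. With the trend removed Itgav stood at 0.24. Of 3 plasminogen receptor genes tested, Eno1 (alpha-enolase) rose by 0.91 and Plgrkt, a membrane receptor with a C-terminal lysine, fell by 0.31. Eno1 was at 0.08 with the trend removed (adjusted p = 0.105, edgeR), and its reads can be shared with a retrotransposed copy, Eno1b. The call of Plgrkt was lost without PA/OA replicate 2 (-0.23, adjusted p = 0.0588, edgeR) or PP replicate 1 (-0.23, 0.0652).

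Genes of plasmin's substrates and downstream proteases went both ways, with 4 of 6 tested higher and 2 lower, where 75% of all genes were called. Fn1 (fibronectin) rose by 1.21 and Tgfb1, whose latent product plasmin can release, by 1.29. Mmp14, a membrane-bound matrix metalloproteinase, fell by 1.68, from 86.2 ± 9.40 to 26.8 ± 2.93 CPM (SD, n = 3), and Mst1 fell by 0.61. Mmp13, a secreted collagenase too scarce for the rule on named genes and named after its values were seen, went the other way, with 10, 14 and 10 counts in PA/OA and 88, 74 and 68 in PP (2.94 ± 0.36, adjusted p = 1.77e-07, edgeR), or 3.66 with the trend removed. Rnf123 lies over Mst1 on the other strand with more counts, so the value of Mst1 is uncertain. Fn1 stood at 0.45 with the trend removed.

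In the coagulation genes, 3 of 4 tested rose and 1 fell, where 75% of all genes were called. F3, the tissue factor gene that starts clotting, rose by 0.75, the prothrombin gene F2 by 1.33 (means of 1.40 and 3.53 CPM), and Procr by 0.85. With the trend removed F2 was at 1.94. Tfpi, the inhibitor of tissue factor, fell by 0.32 (adjusted p = 0.0362, edgeR). That call was lost without PA/OA replicate 2 (-0.19), PP replicate 1 (-0.23) or PP replicate 2 (-0.33), with no filter (-0.31) and with the trend removed (-0.09). Procr was not past the test with library size only (adjusted p = 0.0519, edgeR).

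Anxa2 and S100a10 were also set against their families. Of 8 other annexin genes tested, 5 rose and none fell (62.5% called, beside 75% of all genes), with a median of 0.43, and Anxa4, Anxa11, Anxa5 and Anxa8 rose by 0.88, 0.84, 0.71 and 0.50. Of 6 other S100 genes tested, 4 rose and 1 fell (83.3% called): S100a13 rose by 1.22, S100a6 by 0.72 and S100a1 by 0.61, and S100a16 fell by 0.52. Anxa2 and S100a10 together took 28.5%, 28.8% and 28.6% of the counts of these 17 family genes in PA/OA and 38.3%, 40% and 38.3% in PP (exact two-sided permutation p = 0.1, the smallest possible). This pooled share does not describe S100a10 alone. Counts of Anxa2 went from 90497 over PA/OA to 181281 over PP, and those of S100a10 from 20332 to 26632. Most of the added counts of the pair were thus of Anxa2, and the share of each gene alone was not computed. With library size only, Anxa8 (0.07) and S100a1 (0.17) were not past the test, nor was S100a6 with the trend removed (0.09). Anxa4 stood at 0.12 there.

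**Figure D4:**
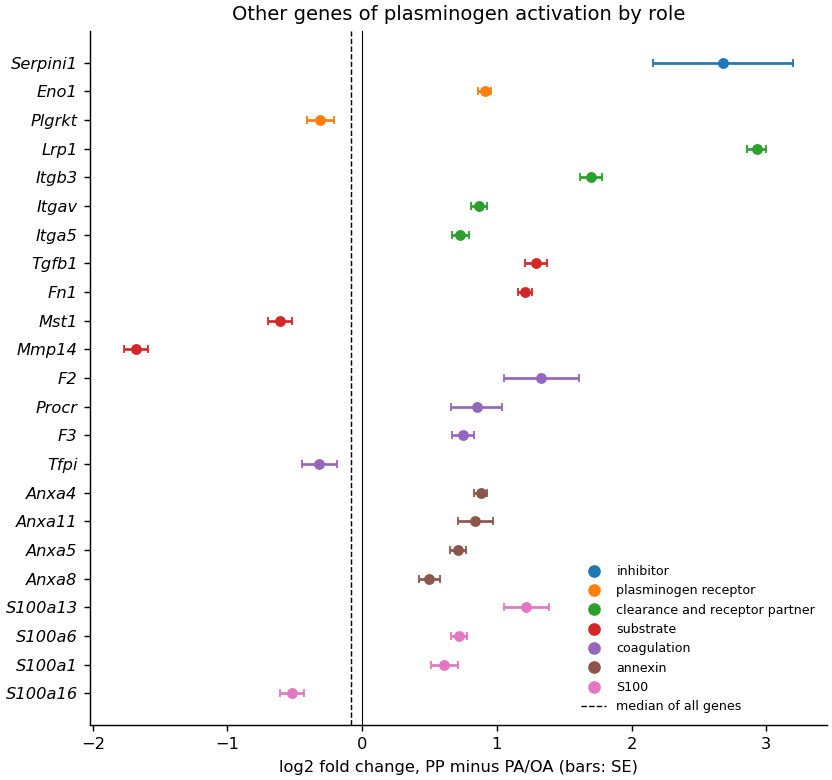
Log2 fold change (PP minus PA/OA) with its SE for 23 other genes of plasminogen activation, coloured by role, with the median of all genes as a dashed line. Lrp1 at 2.93 and the inhibitor gene Serpini1 at 2.68 lie highest, and Mmp14 at -1.68 lowest.

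The genes whose pattern over the 6 libraries lay nearest to that of Plat were Dbp, Nr1d1, Pim1, Mpp2 and Gadd45b. Nearness was the Euclidean distance between log2 CPM centred on each gene's own mean, and ran from 0.37 to 0.66 over these 5. Dbp and Nr1d1 are genes of the circadian clock's output and feedback, Pim1 codes for a serine/threonine kinase and Gadd45b for a stress-induced protein. Their log2 fold changes were 4.15, 3.75, 4.20, 3.82 and 3.55, in that order. With 6 libraries in 2 groups, this likeness is mostly one of fold change, and Sphk2 and Thra lie over Dbp and Nr1d1, so the counts of those 2 are uncertain.

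**Figure D5:**
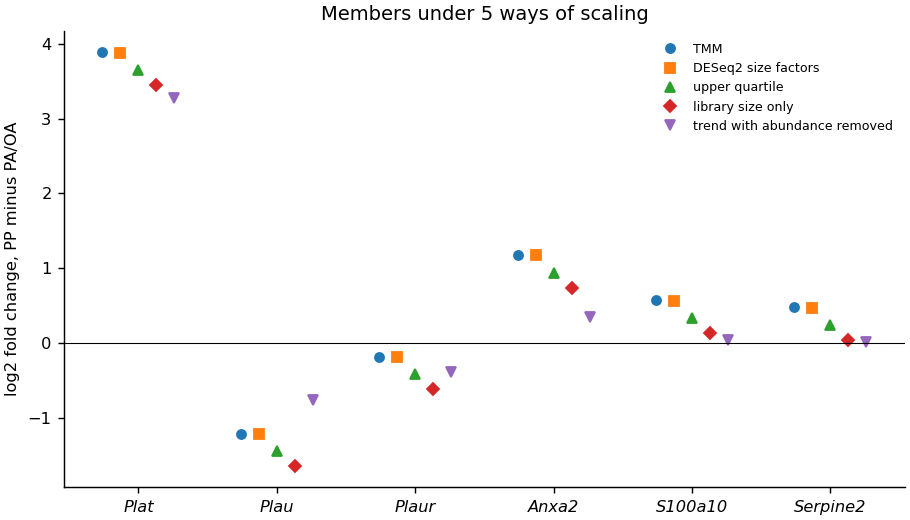
Log2 fold change (PP minus PA/OA) of the 6 genes tested under alternative ways of scaling the libraries, 1 symbol for each. Plat stays between 3.28 and 3.89 and no gene changes sign, while S100a10 and Serpine2 come down to 0.04 and 0.01 with the trend with abundance removed.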

How the data were processed

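Raw counts per gene, 1 column per library, were deposited by the authors; per the submitters' processing notes they were made with featureCounts on build mm10, and DESeq2 1.16.1 is named without its role. No source used here names the aligner, the annotation or the strand setting. Gene lengths come from the deposited table, per the file headers. Among counts of 1 to 20, 57.1% to 61.5% were even, as when both mates of a pair are counted. Libraries of a group differed beyond sampling noise (chi-square per gene 3.15 to 5.04 on halved counts), so none was treated as a copy of another.

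Groups came from the treatment labels. Counts were fitted in R 4.3.3 with edgeR 4.0.16 (filterByExpr, TMM, glmQLFit, two-sided glmQLFTest, Benjamini-Hochberg over 15718 genes, threshold 0.05), which was tested on simulated data. SE came from the fold change and F statistic, and CPM errors are the SD over 3 libraries. A limit from 0 counts is 3 counts over the group. Alternatives used DESeq2 1.42.0, limma 3.58.1, other scalings, filters and gene sets, a replicate block, halved counts, a lowess trend (span 0.4) removed from each library, and each library left out.

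The genes and lists were chosen with earlier results of these data known. Not every gene of the pathway is reported here. Named from the list were, in each role, up to 4 genes past the test with the largest change and an average log2 CPM of at least 1, and all inhibitors; genes nearest to Plat were the 5 closest protein-coding ones, with 0.5 CPM added before logs. Sums over cell type marker lists, beside the hepatocyte and endothelial ones in the report, were 4.03 to 5.32 CPM in PA/OA and 1.99 to 3.64 CPM in PP for stellate cells, and 3.13 to 3.79 and 26.6 to 29.5 CPM for macrophages (Cd68 alone rose, and Adgre1, Clec4f and Vsig4 had no count). For cholangiocytes they were 2430 to 2550 and 4050 to 4500 CPM; all 4 tested of 5 markers rose (Spp1 by 1.37, Krt19 by 0.80, Sox9 by 0.71 and Krt7 by 0.33), and Epcam had no count. Their part in the results was not tested.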

Additional observations from a re-analysis of the deposited data

How the results depend on the processing

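The directions of the 6 genes held under all alternatives run. Plat, with no test, stood at 3.45 with library size only, 3.65 with upper-quartile scaling and 3.28 with the trend removed. Serpine2 was not past the test at 0.04 with library size only or 0.01 with the trend removed, nor S100a10 at 0.04 with the trend removed, nor Plaur at -0.17 with no filter. The median of all genes moved by -0.43 with library size only, by -0.24 with upper-quartile scaling and by -0.32 with no filter. Relative to it, Serpine2 was at 0.56 with TMM, library size only or upper-quartile scaling. Those scalings shift all genes alike, so that sameness is fixed in advance. With the trend removed, Serpine2 was at 0 relative to the median. The genes called higher were 2 with the trend removed instead of 4, and those called lower 1 with no filter instead of 2. Genes of the pathway list called lower were 12 with library size only, 9 with upper-quartile scaling and 8 with the trend removed, against 5. Over all genes, 3235 were higher with library size only, against 5510. The share of family counts in Anxa2 and S100a10 differed by 7.81 percentage points per kilobase, against 10.3.

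Leaving out each library in turn gave Plat 3.82 to 3.94, Plau -1.29 to -1.10, Plaur -0.21 to -0.15, Anxa2 1.14 to 1.24, S100a10 0.54 to 0.63 and Serpine2 0.44 to 0.53. There 1 to 2 of the genes were called lower, as were 3 to 6 of the pathway list; in the list, 3 were called lower without PA/OA replicate 2 or without PP replicate 1. The cause of these shifts was not tested. With the replicate number as a block, 4 genes of the system were higher and 2 lower, as without it. Same-numbered libraries shared deviations with correlations of 0.06, 0.03 and -0.05, and differently numbered ones with -0.08 to 0.04. No pairing by number was seen. With so few libraries in each group, these values cannot tell whether same-numbered libraries were handled together. Plg and Serpinf2 were too scarce to test at this depth.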

Other observations

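Of the 62 genes of the pathway list, 40.3% did not pass the filter and 9.68% had no count in any library, beside 71.2% and 48.7% of all genes in the table. Among genes of plasma proteins in the list, named after their values were seen, levels differed widely. The fibrinogen genes Fga, Fgb and Fgg had 1, 1 and 4 counts over the 3 PA/OA libraries and 0 each over the 3 PP libraries, and Vtn, the vitronectin gene, had 0 and 4. The contact-system genes Klkb1 and F12 had no count and 8 counts over all 6 libraries. F11 and F2 passed the filter, with 83 and 126 counts over PA/OA and 47 and 279 over PP, and Mst1 stood at 46.2 CPM in PA/OA and 30.3 CPM in PP.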
